A study of Homo sapiens with 2 samples.

Results

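The transcripts of 10 genes that encode NF-κB subunits and IκB proteins were examined in HSC-3, an established cell line derived from a human squamous carcinoma of the tongue. The genes were selected by symbol as members of these families, with earlier results of these data known, and all 10 were found among the 60616 genes of the deposited tables. They comprise the 5 subunit genes NFKB1, NFKB2, REL, RELA and RELB, and the 5 genes NFKBIA, NFKBIB, NFKBIE, NFKBIZ and BCL3 of the IκB family. One library came from cells given 1 µM FIN56 for 48 h and the other from cells given 0.1% DMSO, the vehicle. The labels name no genetic change in either culture, and both were grown in DMEM with serum. FIN56 is a compound that triggers ferroptosis, an iron-dependent cell death driven by lipid peroxidation, and the study used it at a dose below the lethal range. With 1 library for each condition, a difference between them cannot be set against the spread of replicates, and p-values are not given. The study asked whether ferroptotic stress activates NF-κB in head and neck carcinoma cells, and answered it with protein assays in other lines such as SAS. From the HSC-3 RNA it also reported NF-κB signalling among the major pathways of the genes raised by FIN56. The comparison made here addresses the transcripts of the pathway at a single time and does not repeat those assays or that pathway analysis.

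NF-κB is a family of dimeric transcription factors that share a DNA-binding Rel homology domain. RELA (p65), REL (c-Rel) and RELB carry a transactivation domain, whereas NFKB1 and NFKB2 encode the precursors p105 and p100, which are processed to p50 and p52. In resting cells the classical inhibitors IκBα, IκBβ and IκBε hold the dimers in the cytoplasm. Phosphorylation by the IKK complex marks these inhibitors for degradation, and the released dimers enter the nucleus. The noncanonical branch instead processes p100 and releases RELB with p52. IκBζ and BCL3 are atypical, nuclear members of the IκB family that can act as coactivators, so the name inhibitor describes their family and not always their action. Several of these genes are themselves classical NF-κB targets, which makes their transcripts part of the feedback of the pathway, and much of the control of NF-κB acts on the proteins, which RNA-seq does not measure.

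Because these genes are known for feedback, their promoters were searched for NF-κB letters. RefSeq promoter windows on GRCh38.p14, from 250 bases before to 50 bases after a transcription start, were at hand for 8 of the 10 genes and numbered 14. RELB and NFKBIE were not searched. The motif GGGANTTTCC was searched on both strands and lies within the broader κB consensus, whose matches therefore include it. It was present in 6 of the 14 windows and in 6 of the 8 genes, against 0.558% of 35116 windows and 0.678% of 27305 genes in the same collection. The κB consensus was present in 9 of the 14 windows and in 7 of the 8 genes, against 11.3% of all windows and 13.3% of all genes. The 6 matches to the narrower motif are shown with 10 bases on either side, in capitals, on the strand of the gene, because they mark which members carry these letters near a start.
NFKB1: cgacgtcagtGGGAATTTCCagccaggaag
NFKB2: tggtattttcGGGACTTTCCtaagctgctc
REL: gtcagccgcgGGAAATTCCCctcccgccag
NFKBIA: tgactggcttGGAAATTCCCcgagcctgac
NFKBIB: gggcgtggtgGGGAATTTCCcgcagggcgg
NFKBIZ: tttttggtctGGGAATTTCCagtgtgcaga
The NFKB1 window lies at chr4:102501300-102501329 on the plus strand, and the capitals begin 49 bases before the start. The NFKB2 window lies at chr10:102395674-102395703 on the plus strand, 21 bases before the start that lies farthest downstream among 3. The NFKBIA window lies at chr14:35404811-35404840 on the minus strand, 81 bases before the start. In NFKBIA and REL the motif reads on the opposite strand. The REL window is chr2:60881518-60881547, and the NFKBIB and NFKBIZ windows are chr19:38899931-38899960 and chr3:101827757-101827786, all on the plus strand. BCL3 held a match to the broader consensus alone. Neither of the 2 windows of RELA held either motif. A match is a description of the letters in these windows and not evidence of binding.

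All 10 genes were expressed at 1 FPKM or more in both libraries. By TPM, which is scaled for gene length and sums to 1000000 in each library, NFKBIA was the most abundant, with 209.84 under DMSO and 176.65 under FIN56. RELA was next, with 104.44 and 147.90 TPM. NFKB2 had 44.43 and 32.81 TPM. The NFKBIA transcript thus stood above every subunit in both libraries, although the gap to RELA was smaller in the FIN56 library.
NFKB1 had 42.86 TPM with DMSO and 36.64 with FIN56. BCL3 had 23.25 and 24.51 TPM, NFKBIB 18.70 and 18.31, and NFKBIZ 14.52 in both libraries. The lowest levels belonged to RELB with 8.96 and 9.14 TPM, NFKBIE with 8.66 and 8.91, and REL with 6.99 and 6.33. The order of the 10 levels was the same in both libraries except that NFKB2 was above NFKB1 with DMSO and below it with FIN56. With DMSO the exact 95% Poisson intervals of NFKB1 and NFKB2 overlapped (41.9 to 43.9 and 43.1 to 45.8 TPM), so their order was not resolved there. With FIN56 these intervals were apart (35.7 to 37.6 and 31.8 to 33.9 TPM). The TPM also depends on the gene length estimated in each library, whose error the intervals leave out. By expected counts, NFKB2 over NFKB1 changed by a factor of 0.986 (0.933 to 1.04), with 1 inside the interval. RELB and NFKBIE overlapped in both libraries, and all other neighbours in the order were apart. These intervals cover counting error only.

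**Figure D1:**
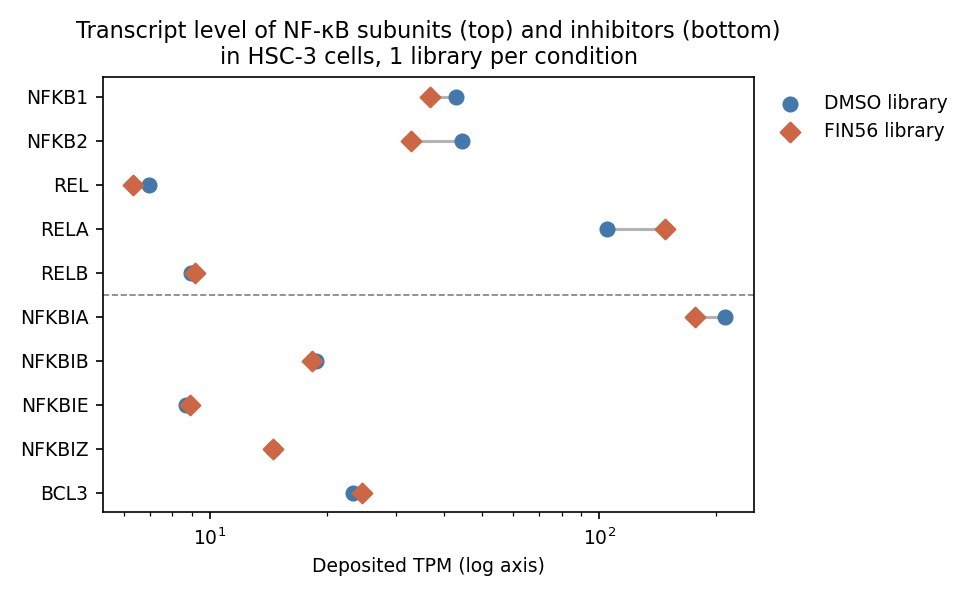
Deposited TPM (log axis) of the 5 subunit genes above the dashed line and the 5 IκB family genes below it, with a circle for the DMSO library and a diamond for the FIN56 library. RELA moves to the right from 104.44 to 147.90, NFKBIA, NFKB1 and NFKB2 move to the left, and the other genes change little.

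No subunit or IκB gene reached the fold change of 1.5 that the study used. The FPKM ratio, FIN56 over DMSO, was 1.5 or more for 0 of the 10 genes and 1/1.5 or less for 0. Among all 12638 genes at 1 FPKM or more in both libraries, 3.87% were at 1.5 or more and 6.77% at 1/1.5 or less. With shares this small, 0 of 10 genes cannot be told apart from expressed genes at large. The share among all 24454 genes above 0 in both libraries was 14.7% at 1.5 or more and 17.3% at 1/1.5 or less, a set in which many genes rest on few reads. Among the 10 genes 3 FPKM ratios were above 1 and 7 below it, and by counts 4 were above and 6 below. Of all genes at 1 FPKM or more, 46.5% had an FPKM ratio of 1 or less. The median log2 FPKM ratio of the 10 genes was -0.046, beside 0.028 over the genes at 1 FPKM or more. By count ratios the medians were -0.134 and 0.010. The ratios ran from 0.722 for NFKB2 to 1.39 for RELA, and both ends lay inside the span from the 5th to the 95th percentile of genes at 1 FPKM or more, which was 0.633 to 1.45.

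RELA was the one subunit whose value was higher in the FIN56 library by more than counting error. In bulk RNA a difference in level can come from more transcript per cell or from a different mix of cells, which cannot be told apart here. RELA is a gene of chromosome 11, on the minus strand between 65653599 and 65663090 (GRCh38, positions of GENCODE release 44), and encodes p65, the main activating subunit of the canonical branch. The FPKM of RELA was 69.83 under DMSO and 96.76 under FIN56, which is a ratio of 1.39. The expected counts were 10860 and 14870. Both are whole, and thus RSEM showed no splitting of RELA reads with a second gene. The count ratio, scaled by the library totals, was 1.32 with a 95% counting interval of 1.28 to 1.35. A ratio at or above that of RELA was seen for 903 of the 12638 genes at 1 FPKM or more (7.15%). Its exons share 103 bases with the divergent transcript RELA-DT on the opposite strand, which had 71 and 42 expected counts.

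The counting intervals are exact Clopper-Pearson intervals of the share of reads in the FIN56 library. With totals of 70184517 and 73062209 expected counts in the DMSO and FIN56 libraries, small differences exceed counting error for most expressed genes. The interval excluded 1 for 73.9% of the genes at 1 FPKM or more, 38.0% above 1 and 35.9% below. Among the 10 genes it lay above 1 for RELA alone, lay below 1 for 5 genes and included 1 for 4. This count compares the libraries and not the conditions.

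The remaining subunits were lower in the FIN56 library or near 1. NFKB2, on chromosome 10 from 102394110 to 102402524, encodes p100, the precursor of p52 in the noncanonical branch. The FPKM of NFKB2 was 29.71 under DMSO and 21.46 under FIN56, the lowest ratio of the 10 at 0.722. The expected counts of 4455 and 3746 gave a milder ratio of 0.808 (95% counting interval 0.773 to 0.844). An FPKM ratio at or below that of NFKB2 was seen for 10.2% of the genes at 1 FPKM or more.
NFKB1, on chromosome 4 from 102501330 to 102617302, encodes p105, the precursor of p50. It had an FPKM of 28.66 with DMSO and 23.97 with FIN56, and 7273 and 6203 expected counts. The FPKM ratio was 0.836 and the count ratio 0.819 (0.792 to 0.848), so the measures lay close together for this gene. REL encodes c-Rel, a subunit best known in lymphoid cells, and had an FPKM of 4.68 and 4.14. Its FPKM ratio was 0.885 and its count ratio 0.892 (0.851 to 0.935). REL shares 5702 exon bases with a long non-coding gene on the same strand, AC010733.1, and the expected counts of both were fractional, so the division of reads between them adds uncertainty to REL.
RELB, the partner of p52, had an FPKM of 5.99 with DMSO and 5.98 with FIN56. Its counts were 876 and 849, a ratio of 0.931 with an interval of 0.846 to 1.02, so no difference was detectable at this depth. TPM put RELB slightly above 1 (1.02), the only alternative scale that did.

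NFKBIA was the IκB gene with the lowest FPKM ratio. NFKBIA, on chromosome 14 from 35401079 to 35404749, encodes IκBα, the inhibitor that is resynthesised when NF-κB is active and that ends the response. The FPKM of NFKBIA was 140.31 under DMSO and 115.56 under FIN56. The expected counts of 13544 and 11610 were whole numbers. The FPKM ratio was 0.824 and the count ratio 0.823 (0.803 to 0.844). NFKBIA thus stood beside NFKB1 in size and direction.
The other classical inhibitors were close to 1. NFKBIB, which encodes IκBβ, had an FPKM of 12.50 and 11.98 and counts of 1433 and 1532. Its direction depended on the measure, with an FPKM ratio of 0.958 and a count ratio of 1.03 (0.955 to 1.10). It shares 40 exon bases with SIRT2 on the opposite strand, which had 1166 and 847 expected counts. NFKBIE, which encodes IκBε, had 554 and 578 expected counts and an FPKM of 5.79 and 5.83, a ratio of 1.01. Its counting interval of 0.890 to 1.13 is the widest of the 10, and no difference was detectable at this depth.
Of the atypical members, BCL3, a nuclear partner of p50 and p52, had an FPKM of 15.54 and 16.03, a ratio of 1.03, and its count ratio had an interval of 0.964 to 1.10. NFKBIZ, which encodes IκBζ, had an FPKM of 9.71 and 9.50, a ratio of 0.978. Its expected counts of 2137.62 and 1922.75 gave a lower ratio of 0.864 (0.812 to 0.919). NFKBIZ shares 194 exon bases with NXPE3 on the same strand, a gene with 5790.38 expected counts with DMSO and 4062.25 with FIN56. The counts of both genes were fractional, and the part of shared reads in the ratio of NFKBIZ was not tested.

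**Figure D2:**
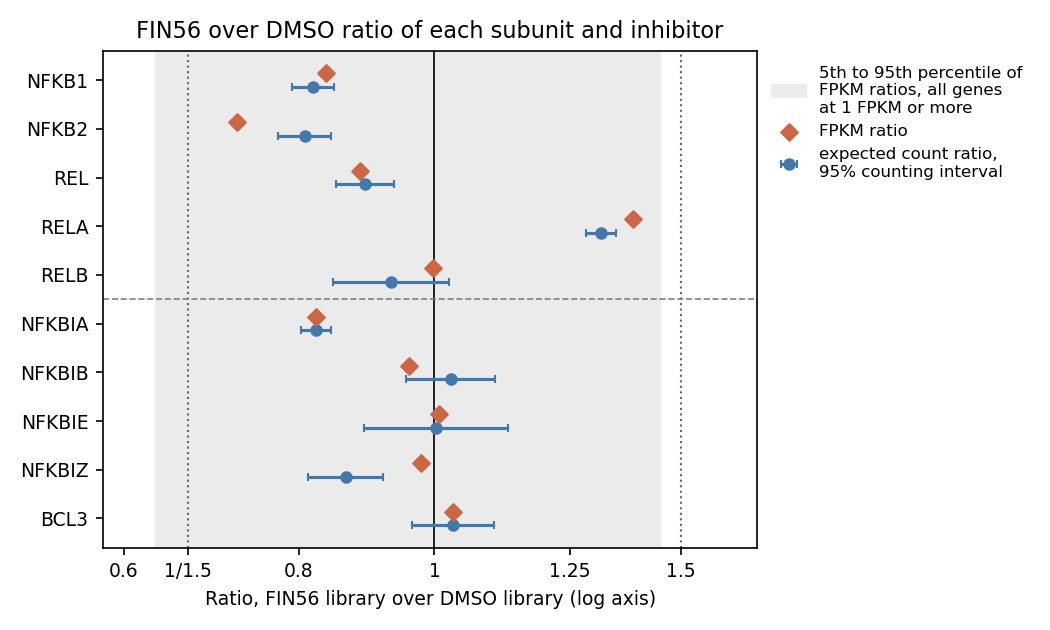
Ratio of the FIN56 to the DMSO library (log axis) for each gene, as the deposited FPKM ratio (diamonds) and as the expected count ratio with its 95% counting interval (circles and bars). Dotted lines mark 1.5 and 1/1.5 and the grey band spans 0.633 to 1.45. RELA lies right of 1, and NFKB1, NFKB2, REL and NFKBIA lie left of it, by both ratios. The count interval of NFKBIZ (0.812 to 0.919) also lies left of 1. No gene crosses a dotted line.

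The FPKM and count ratios parted most for NFKB2 and NFKBIZ. RSEM divides by an effective gene length, which depends on the transcript mix it finds in a library. The count ratio over the FPKM ratio therefore gives the change of that length. For NFKB2 it was 1.12, a longer estimated length in the FIN56 library, at percentile 97.2 of the 10049 genes at 1 FPKM or more and 500 or more expected counts in both libraries. For NFKBIZ it was 0.883, at percentile 5.93 of the same genes. NFKBIB had 1.07, at percentile 93.7, and RELA 0.949, at percentile 20.2. NFKBIA, NFKBIE and BCL3 lay within 0.995 and 1.00. The middle 90% of these genes ran from 0.873 to 1.08. The tables hold no values per transcript, so which isoforms lie behind these lengths was not tested.

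The make-up of the subunit pool differed between the libraries. RELA made up 50.3% of the summed TPM of the 5 subunits with DMSO and 63.5% with FIN56. NFKB2 went from 21.4% to 14.1% and NFKB1 from 20.6% to 15.7%. REL and RELB together held the small remainder in both. The summed TPM of the 5 subunits was 207.68 with DMSO and 232.82 with FIN56, a ratio of 1.12, and without RELA it was 103.24 and 84.92, a ratio of 0.823. By expected counts, which are not divided by length, RELA held 40.2% (exact 95% binomial interval 39.6 to 40.7) with DMSO and 51.3% (50.7 to 51.9) with FIN56. The direction of the RELA share was thus the same on both scales.
The IκB pool was smaller in the FIN56 library when summed, although the median log2 ratio of its 5 genes was -0.032 by FPKM and 0.003 by counts. Its summed TPM was 274.97 with DMSO and 242.90 with FIN56, a ratio of 0.883. NFKBIA held 76.3% and 72.7% of it, so the sum largely follows that gene. The summed IκB TPM over the summed subunit TPM was 1.32 with DMSO and 1.04 with FIN56. By expected counts, which weigh long transcripts more, it was 0.714 and 0.601. The IκB sum was thus above the subunit sum by TPM and below it by counts, and the ratio was lower in the FIN56 library on both scales. These are sums of transcripts, and they say nothing about the amounts of protein.

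**Figure D3:**
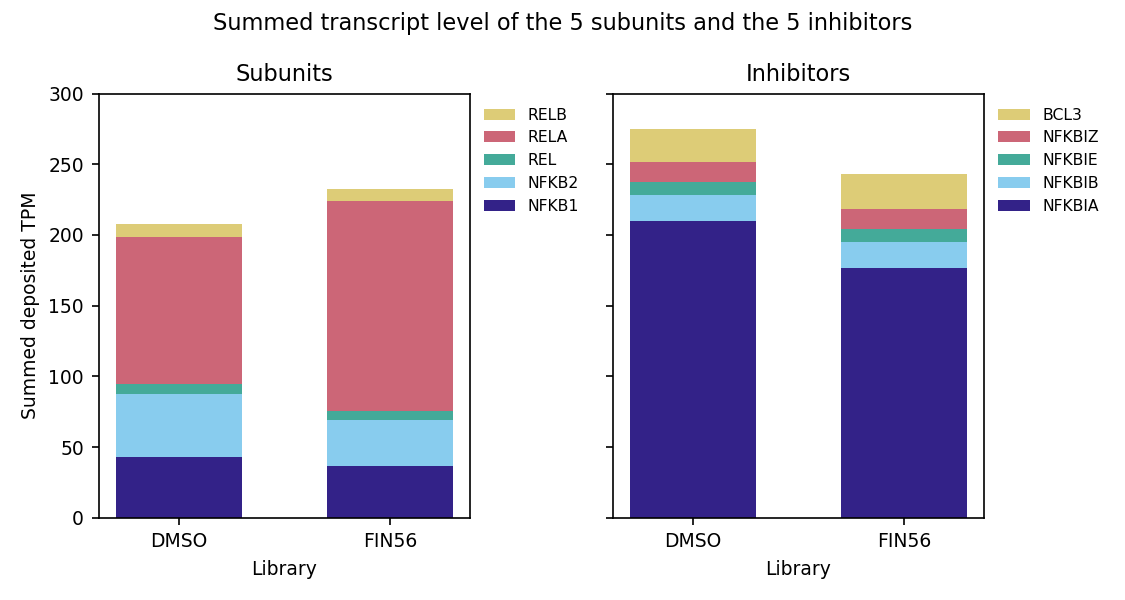
Summed deposited TPM of the 5 subunits (left) and the 5 IκB family genes (right) in each library, stacked by gene. The subunit bar goes from 207.68 with DMSO to 232.82 with FIN56 as the RELA part grows, and the IκB bar goes from 274.97 to 242.90, mostly in NFKBIA.

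Ratios between genes within a library need no scaling between libraries, and the pairs below were chosen after the values had been seen. RELA over NFKB1, the genes of the p65 and p50 dimer, was 2.44 by TPM with DMSO and 4.04 with FIN56. By counts the change was 1.61 (exact 95% counting interval 1.54 to 1.67). RELA over NFKBIA was 0.498 by TPM with DMSO and 0.837 with FIN56, with a count change of 1.60 (1.54 to 1.65). RELA over NFKB2 went from 2.35 to 4.51 by TPM, with a count change of 1.63 (1.55 to 1.71). RELB over NFKB2, the genes of the noncanonical dimer, was 0.202 by TPM with DMSO and 0.279 with FIN56. Its count change was smaller, at 1.15 (1.04 to 1.28), and the estimated lengths of both genes enter the TPM alone. The remaining pairs were NFKBIA over NFKB1, NFKB2 over NFKB1 and NFKBIA over NFKB2. Their count changes were 1.01 (0.964 to 1.05), 0.986 (0.933 to 1.04) and 1.02 (0.969 to 1.07), with 1 inside each interval. By TPM the changes were 0.985, 0.864 and 1.14. Of the 8 genes with a searched promoter, the 6 that held GGGANTTTCC had FPKM ratios from 0.722 to 0.978 and count ratios from 0.808 to 1.03. The others were RELA with 1.39 by FPKM and 1.32 by counts, and BCL3 with 1.03 on both. The count ratios of NFKBIB, which held the motif, and BCL3, which did not, were thus alike. A link between the motif and the ratios was not tested.

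The other genes of the pathway were read from 5 lists with 68 genes, of which 67 were above 0 in both libraries. At 1.5 or more there were 2 genes and at 1/1.5 or less 5, beside 14.7% and 17.3% of all genes above 0 in both. Among the 62 pathway genes at 1 FPKM or more in both libraries, the counts were 2 and 3, beside 3.87% and 6.77% of all such genes. Neither count stood above these shares. The lists hold the machinery of the pathway as well as target genes. They differ from the gene sets of the study's pathway analysis of raised genes, which was not repeated here. The kinases of the IKK complex and those above it had 0 of 10 genes past either threshold, 7 FPKM ratios above 1 and a median log2 ratio of 0.176, or 0.066 by counts. TBK1, a kinase related to the IKKs, had the highest ratio at 1.31, from 3932.23 to 5388 expected counts. IKBKB, the IKKβ kinase of the canonical branch, had the lowest at 0.899. MAP3K14, the NIK kinase of the noncanonical branch, had an FPKM of 4.98 with DMSO and 5.87 with FIN56.
Of 14 receptors and adaptors, 0 were at 1.5 or more and 2 at 1/1.5 or less. All 14 were at 1 FPKM or more, where 6.77% of all genes were at 1/1.5 or less, and nothing is read from a count of 2. The list had a median log2 ratio of 0.115, or 0.119 by counts. CD40, a TNF receptor family member that feeds both branches, had 752 expected counts with DMSO and 374 with FIN56 and an FPKM ratio of 0.507. IRAK1, a kinase below the IL-1 and Toll-like receptors, had 19871 and 13287 and an FPKM ratio of 0.659. MYD88, which recruits IRAK kinases to those receptors, stood at the other end with 1.38.
The ubiquitin machinery, which builds, reads or removes the chains that act on IKK and IκB, had 0 of 10 genes past either threshold. Its median log2 FPKM ratio was 0.159, or 0.031 by counts, and the FPKM ratios ran from 0.827 for CUL1 to 1.30 for UBE2N.
The 9 brakes had 0 genes past either threshold and a median log2 ratio of 0.004 by FPKM and -0.100 by counts, so the side of 0 on which this list lay depended on the measure. COMMD1, which promotes RELA degradation, had a ratio of 1.39, and PDLIM2, which also targets nuclear RELA, had 0.727. TNFAIP3 encodes A20, a ubiquitin-editing feedback inhibitor, and had an FPKM of 68.72 with DMSO and 67.14 with FIN56. BIRC3, an induced ubiquitin ligase, had 7.39 and 5.67. TNFAIP3 was thus near 1 by FPKM, with a ratio of 0.977, and its count ratio was 0.933 (0.913 to 0.954). Of the 9 genes of this list, 5 had an FPKM ratio above 1 and 3 a count ratio above 1. Nothing is read from this split either.

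Of 25 commonly cited NF-κB target genes, 24 were above 0 in both libraries, 2 were at 1.5 or more and 3 at 1/1.5 or less. Beside them stand 14.7% and 17.3% of all genes above 0 in both. Of the 19 target genes at 1 FPKM or more, 2 were at 1.5 or more and 1 at 1/1.5 or less, beside 3.87% and 6.77% of all such genes, and nothing is read from counts this small. Over the 24 target genes the median log2 ratio was -0.103, or -0.176 by counts, with 10 ratios above 1 and 14 below on both measures. The median FPKM ratio of all genes above 0 in both libraries was 1.0. CD274, which encodes PD-L1 and is the target on which the study centred, had the highest ratio at 2.13, from an FPKM of 9.58 to 20.38. PTGS2, the inducible cyclooxygenase, was the other, at 1.68. Below 1/1.5 were BCL2A1, a survival factor of the BCL2 family, at 0.411 from 108 and 46 expected counts, and CXCL3, a neutrophil chemokine, at 0.644 from 530.02 and 354.93. The counts of CXCL3 were fractional, and it has close paralogs in CXCL1 and CXCL2. LTB, named here because it completes the count and not by the rule for named genes, had 66 and 33 expected counts. VCAM1 was listed at 0 in both.

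**Figure D4:**
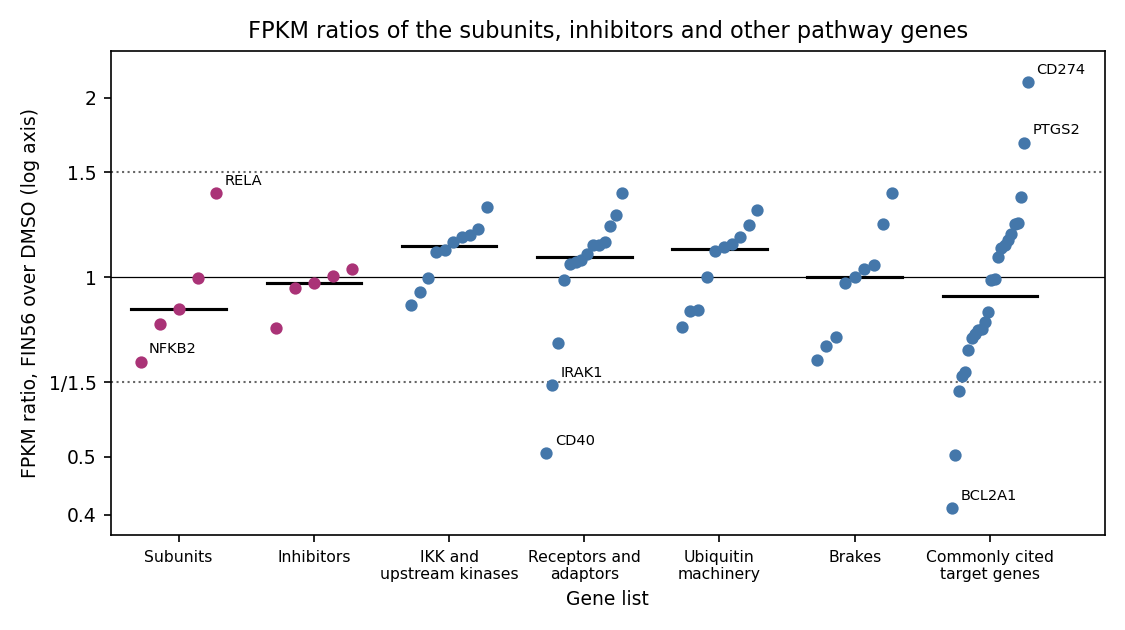
FPKM ratio, FIN56 over DMSO (log axis), of each subunit, each IκB gene and each gene of the 5 pathway lists, 1 point per gene, with a bar at the median of each list and dotted lines at 1.5 and 1/1.5. Of the pathway genes CD274 (2.13) and PTGS2 (1.68) lie above the upper line, and CD40, IRAK1, CXCL3, LTB and BCL2A1 lie below the lower line.

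The labelled cell type was checked against markers. All 7 squamous and epithelial markers were at 1 FPKM or more in both libraries, with a summed FPKM of 5202.4 and 4633.8. PTPRC and CD3E of leukocytes were listed at 0 in both, and CD79A and LYZ had at most 2 expected counts. CD68 and CD14, which are not restricted to leukocytes, had an FPKM of 57.27 and 3.62 with DMSO and 24.58 and 5.15 with FIN56. The 3 endothelial markers had a summed FPKM of 0.08 in each library. The part of CD68 and CD14 in the ratios above was not tested.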

How the data were processed

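RNA of HSC-3 cells was sequenced after a TruSeq Stranded mRNA preparation, 1 library per condition. The methods describe the steps for tumor samples, and the submitters' processing notes name the same tools here. Trimming by the authors used AfterQC 0.9.7, alignment STAR 2.6.1a against GRCh38 (Ensembl release 94), and estimation RSEM 1.3.1. The strand setting is not given in the sources used here. The deposited expected counts are raw estimates per gene, and the deposited FPKM and TPM are divided by effective length. The log2 values deposited by the authors are rlog values from DESeq2 1.26.0.

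Genes were matched by symbol. The main measure was the deposited FPKM ratio, FIN56 over DMSO, with thresholds of 1.5 and 1/1.5 from the study. Expected counts were rounded for exact 95% intervals, which cover counting error only, as reads lacking molecular identifiers can be copies of 1 molecule. TMM (edgeR 4.0.16) and median-of-ratios (DESeq2 1.42.0) scaling were alternatives. Steps were tested on simulated data. The members and lists were chosen with earlier results of these data known. All 10 members are named in the text. Of each pathway list, genes past a threshold are named if their expected counts add up to 100 or more, or else the highest and lowest ratio, with CD274, TNFAIP3, BIRC3 and MAP3K14 in any case. MYD88 was added after its value was seen. Likeness of pattern was not ranked, since 2 libraries give 1 ratio per gene. Positions came from GENCODE release 44 and promoters from RefSeq, both on GRCh38. Python 3.11.15, numpy 2.4.6, scipy 1.17.1, pandas 2.3.3 and R 4.3.3 were used. The value of 1 marker gene is not reported here.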

Additional observations from a re-analysis of the deposited data

How the results depend on the processing

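No paired analysis was possible because there are no replicates, which also means that none could be left out. A pseudocount, a filter or a stricter fold cannot raise a count of 0, so those runs could give no other result. Under every alternative scale run, the count of 0 subunit and IκB genes past either threshold held. TPM differs from FPKM by a common factor in each library, and rlog values draw the libraries together. Only the scalings of expected counts could thus readily have raised it. With a counting interval that excludes 1 as the criterion, it became 1 gene higher and 5 lower. RELA was above 1, and NFKB1, NFKB2, REL and NFKBIA below 1, under all 9 alternatives run for single genes. Among these, the filters leave a ratio unchanged and the pseudocounts cannot move it across 1. Only the alternative scales could have changed the side. RELA ranged from 1.14 with rlog values, which draw the libraries together, to 1.42 with TPM, and NFKB2 from 0.722 to 0.925. NFKBIB was above 1 under 4 alternatives and below under 5. Of the alternative scales, TPM alone put it below 1. The pathway genes at 1.5 or more, 2 in the report, became 0 with rlog values, 1 at a fold of 2 and 30 by the counting interval. Those at 1/1.5 or less, 5 in the report, became 0 with rlog values, 1 at a fold of 2 and 28 by the counting interval. They became 3 with a pseudocount of 1 FPKM and 3 among genes at 1 FPKM or more, where low genes are damped or left out. The RELA share of subunit transcripts was 40.2% and 51.3% by expected counts, in place of 50.3% and 63.5%, since counts are not divided by length. The median of all genes at 1 FPKM or more ranged from 0.008 with TMM to 0.059 with TPM on the log2 scale, beside 0.028 with FPKM. The ratio of the summed IκB to the summed subunit transcripts by expected counts was added after the data had been seen. FIN56 and any other way in which the cultures differed cannot be told apart.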
